A study of Xenopus laevis with 6 samples.

Results

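The 70 genes described here belong to the families of microtubule motors, studied in the tectum of Xenopus laevis tadpoles. They encode kinesin heavy chains, subunits of cytoplasmic dynein and subunits of dynactin, and not all of them carry cargo. They were taken by name from the 45099 genes of the deposited annotation (build 9.1), by a rule that uses no read count. The members were, however, chosen with earlier results of these data known. The names cover the numbered kinesins, the C-type kinesins, kinesin light chains, dynein and its light chains, and dynactin, apart from 5 mitotic kinesins (kif11, kif20a, kif23, kif4a and kif2c). Other kinesins of dividing cells stayed in the list, with 9 spindle kinesin genes. The 70 genes carry 44 symbols. X. laevis holds 2 subgenomes, so 39 of the genes are L copies, 31 are S copies, and 26 symbols are present as both. No gene name matched the kinesin light chains klc1 to klc4, and names ending in "-like", such as kif1b-like and kif3b-like, lie outside the rule.

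RNA was sequenced from stage 46 optic tectum, where the retina's axons end. The 3 IN libraries were made from a population enriched for immature neurons, from tadpoles given visual stimulation. The 3 NPC libraries were made from a population enriched for neural progenitors, from tadpoles kept in the dark. The labels name no transgene, mutation or drug in either group. Population and visual condition went together throughout, so their effects cannot be told apart, and the labels do not say how either population was enriched.

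Kinesins mostly walk towards the plus ends of microtubules, which point outwards in axons, and so carry vesicles, mitochondria and RNA granules from the cell body. Cytoplasmic dynein walks the other way and needs dynactin and adaptor proteins to move over long distances. Neurons depend on both because their processes are long, whereas in dividing progenitors dynein also positions the nucleus and several kinesins work on the mitotic spindle or in the primary cilium.

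The libraries held 9388103, 9747548 and 9914191 counted reads in IN and 8422751, 9655246 and 8480161 in NPC. The motor genes took 0.475% to 0.617% of them in IN and 0.448% to 0.640% in NPC, 302492 reads in all. Every motor gene had reads in at least 1 library, 59 had reads in all 6, and 48 had more than 1000 reads in total. The 20 progenitor and radial glia markers and the 16 neuron markers all had reads in every library. The groups overlapped for the sum of each list. Summed neuron markers were at 5473, 7011 and 7814 CPM in IN and at 5929, 9988 and 9336 CPM in NPC, where CPM are counts corrected for library size. Summed progenitor markers were at 2035, 2669 and 4233 CPM in IN and at 1527, 3214 and 3471 in NPC. The marker sums therefore did not separate the libraries by the population their labels name. Among single neuron markers 1, or 6.25%, had groups without overlap, against 8.76% of all genes tested. This was elavl4.S, lower in IN at 162, 156 and 112 CPM, against 268, 513 and 202 CPM in NPC. In bulk tissue, fewer cells of a type and less RNA per cell cannot be told apart.

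No motor gene passed the test of IN against NPC. Of the 70 genes, 64 passed the filter on low counts and were tested. None of them passed an adjusted p of 0.05 with edgeR's quasi-likelihood test. Among all 19158 genes tested with edgeR the share past that threshold was 0%, so the result is the same as the background. DESeq2 called 0.459% of all genes and none of the motor genes, but it gave no adjusted p for kif13b.S, kif7.L and kif18a.L. Without a filter on low counts edgeR called 0.0515% of all genes and again none of the motor genes, and limma-voom called no gene at all. At an unadjusted edgeR p under 0.05 there were 3 motor genes of 64, or 4.69%, against 3.43% of all genes. Of these, dync1li1.L and dctn3.L were higher in IN (background 1.51%) and kif13b.S was lower in IN (background 1.93%).

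The fold changes of the motor genes scattered around 0. Estimates of log2 fold change (IN over NPC) were above 0 for 27 genes and below 0 for 37, or 57.8% below 0, against 51% of all genes. The median log2 fold change was -0.06, against -0.03 over all genes, and the middle 50% of motor genes lay between -0.55 and 0.36, against -0.78 to 0.79 over all genes. For 35 of the 64 genes the estimate lay within 0.5 of 0 on the log2 scale. The precision was limited: the 95% interval reached 0.91 to each side of the estimate at the most precise motor gene, 2.01 at the median and 4.74 at the least precise.

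**Figure D1:**
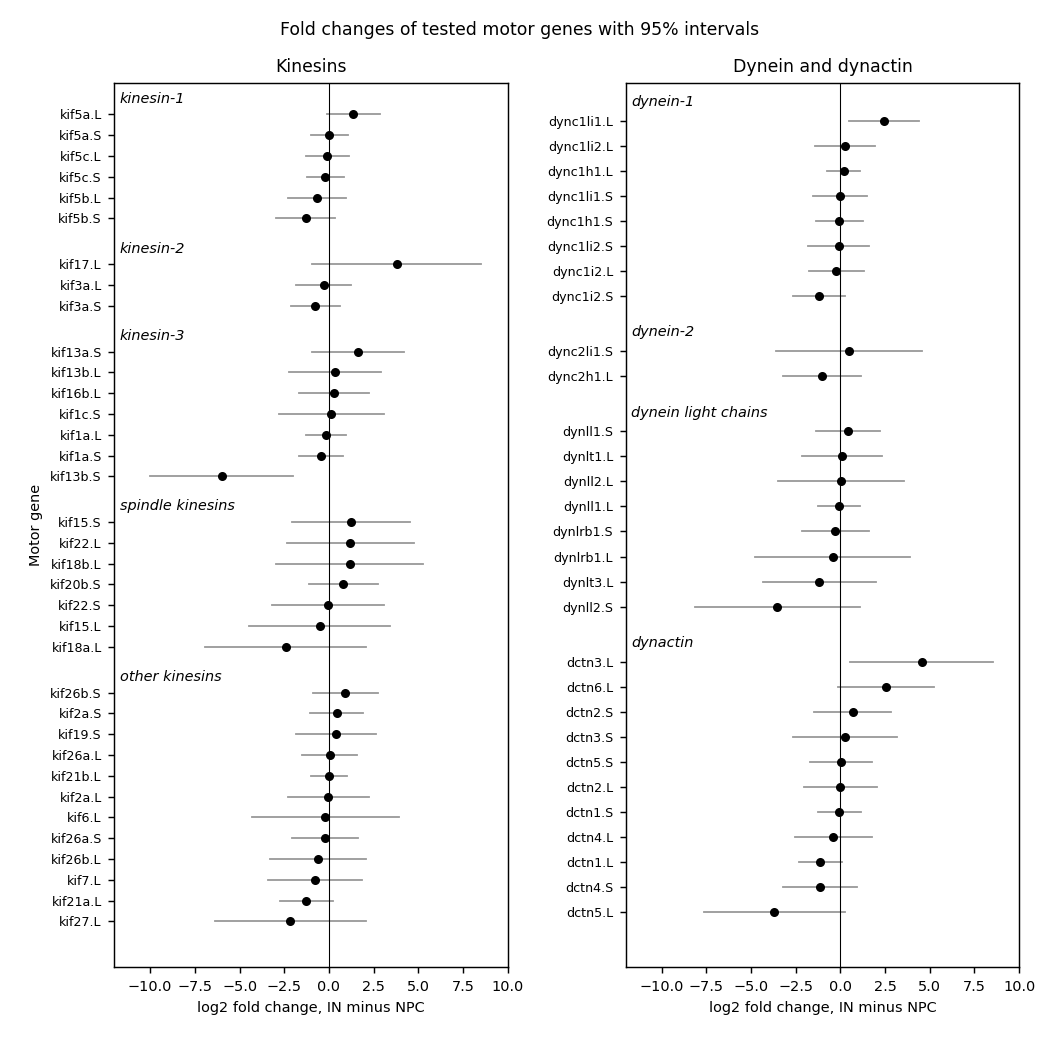
Log2 fold change, IN minus NPC, of the 64 tested motor genes (points) with the 95% interval of the edgeR fit (grey lines), kinesins on the left and dynein and dynactin on the right, grouped by role. The intervals of dync1li1.L, dctn3.L and kif13b.S do not include 0, and none of these genes passed the adjusted threshold.

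Groups that did not overlap were seen for 9 of the 64 tested genes, or 14.1%, against 8.76% of all genes. In 5 of them all IN libraries were above all NPC libraries (dctn3.L, dctn6.L, dync1li1.L, kif17.L and kif13a.S), against a background of 4.7%. In the other 4 all IN libraries were below all NPC libraries (dync1i2.S, dync2h1.L, kif21a.L and kif26a.S), against a background of 4.06%. No role class held more than 2 of these 9 genes. In coding counts scaled to their own total, a comparison added after seeing the data, 6 of the 9 again did not overlap, in the same direction. There the groups overlapped for dctn6.L, kif17.L and kif26a.S, and 8 of 60 tested motor genes, or 13.3%, had groups without overlap, against 9.59% of all genes.

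Kinesin-1, the plus-end motor that carries mitochondria and many vesicles, has 3 heavy chains in vertebrates. In mammals kif5b is made in most cells, whereas kif5a and kif5c are made mainly in neurons. All 6 copies had at least 216 reads in every library. kif5a.S (2S, 123451924 to 123533403, plus strand) was even across the libraries, at 243, 284 and 242 CPM in IN and 261, 269 and 233 CPM in NPC. The groups overlapped fully, and the log2 fold change was 0.01 (SE 0.49, 95% interval -1.02 to 1.04).

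Its L copy, kif5a.L (2L, 142266807 to 142347136, plus strand), varied more, at 236, 38.8 and 210 CPM in IN and 81.8, 35.4 and 70.7 CPM in NPC. IN replicates 1 and 3 were above every NPC library, and IN replicate 2 lay at the level of NPC replicate 2. Means were 162 ± 107 CPM in IN and 62.6 ± 24.2 CPM in NPC (SD, n = 3 each). It gave a log2 fold change of 1.37 (SE 0.72, edgeR unadjusted p = 0.0703, adjusted p = 1.00) and ranged from 0.99 without IN replicate 1 to 1.84 without IN replicate 2. Over coding sequence the log2 fold change of kif5a.L was 1.04 (edgeR unadjusted p = 0.226). Added together, the kif5a copies were at 479, 323 and 452 CPM in IN and 342, 304 and 303 CPM in NPC. The summed groups overlapped, with a log2 fold change of 0.41 (SE 0.44).

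The neuronal kif5c copies showed no separation. kif5c.S (9_10S, 52464304 to 52507019, plus strand) was at 237, 241 and 349 CPM in IN and at 198, 357 and 392.2 CPM in NPC, a log2 fold change of -0.20 (SE 0.50). kif5c.L (9_10L, 57231110 to 57268240, plus strand) was at 153, 109 and 168 CPM in IN and at 135, 201 and 121 CPM in NPC, a log2 fold change of -0.09 (SE 0.57).

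For kif5b, 1 library stood apart in the mRNA counts of both copies. kif5b.S (6S, 16114735 to 16171077, plus strand) was at 104, 24.7 and 47.1 CPM in IN and at 49.4, 67.9 and 318 CPM in NPC. kif5b.L (6L, 19457514 to 19513752, plus strand) was at 90.3, 70.8 and 158 CPM in IN and at 22.9, 80.4 and 409 CPM in NPC. NPC replicate 3 was the highest library for each copy, and the other 5 libraries of the groups overlapped. It stood less apart in the coding reads of kif5b.L, which were 637, 408 and 1286 in IN and 193, 572 and 1403 in NPC. The log2 fold change of kif5b.L was -0.68 in mRNA counts and -0.06 in coding counts. The log2 fold change of kif5b.S was -1.31 (SE 0.79, edgeR unadjusted p = 0.112), and without NPC replicate 3 it was 0.00.

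The make-up of the kinesin-1 heavy chains was compared in RPKM, reads per kilobase of mRNA scaled to the library size, the scale on which levels of different genes can be set side by side. In IN, kif5a made 45.0% ± 3.07, kif5c 36.8% ± 3.41 and kif5b 18.2% ± 3.05 of the summed level (SD, n = 3). In NPC, kif5a made 34.3% ± 13.8, kif5c 39.3% ± 12.2 and kif5b 26.4% ± 22.9 (SD, n = 3). The IN libraries were alike in make-up, whereas the share of kif5b in NPC ran from 10.03% in replicate 1 to 52.6% in replicate 3. By coding reads per coding length, a scale added after seeing the data, kif5c came first on average, with 43.0% ± 7.83 in IN and 43.4% ± 10.7 in NPC. On that scale kif5a made 39.1% ± 3.72 in IN and 32.9% ± 11.5 in NPC, and kif5b 17.9% ± 4.57 in IN and 23.7% ± 15.5 in NPC (SD, n = 3 each). NPC replicate 3 again had the most kif5b, at 41.6%. The order of kif5a and kif5c in IN thus depended on the part of the transcript counted.

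Kinesin-2 motors carry cargo into cilia and along axons, and kif3a is their obligate heterodimer subunit. kif3a.S (3S, 107231403 to 107276440, minus strand) was at 70.5, 87.8 and 54.3 CPM in IN and 126, 158 and 76.8 CPM in NPC. kif3a.L (3L, 31225806 to 31255679, plus strand) was at 46.1, 88.8 and 52.1 CPM in IN and 64.1, 61.0 and 106 CPM in NPC. Each copy's groups overlapped, with log2 fold changes of -0.76 (SE 0.66) and -0.31 (SE 0.75). Added together, the copies were at 117, 177 and 106 CPM in IN and 190, 219 and 183 CPM in NPC. The summed groups did not overlap, yet the gap was small beside the error, with a log2 fold change of -0.56 (SE 0.53, edgeR unadjusted p = 0.302).

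kif17.L (Scaffold72, 800670 to 815512, plus strand) encodes the homodimeric kinesin-2, which in mammals carries vesicles with NMDA receptor subunits into dendrites. It had 45, 110 and 169 reads in IN and 22, 0 and 0 reads in NPC. Every IN library was above every NPC library, at a level that was low in each of them. Over coding sequence it had 45, 0 and 142 reads in IN and 3, 0 and 0 in NPC, so none of the 110 reads of IN replicate 2 was counted there and the groups overlapped. The reads amounted to 4.44, 11.2 and 17.4 CPM in IN and 2.33, 0 and 0 CPM in NPC, and the log2 fold change was 3.79 (SE 2.27, edgeR unadjusted p = 0.111). Without the only NPC library that had reads it was 9.64, a value set by the counts of 0.

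Kinesin-3 is led by kif1a, the motor of synaptic vesicle precursors. kif1a.S (5S, 107027104 to 107100833, plus strand) was at 359, 147 and 237 CPM in IN and at 342, 96.9 and 562 CPM in NPC. kif1a.L (5L, 124530714 to 124635657, plus strand) was at 322, 146 and 273 CPM in IN and at 411, 177 and 228 CPM in NPC. Replicate 2 was the lowest library of its group for each copy, and the groups overlapped. Log2 fold changes were -0.43 (SE 0.59) for kif1a.S and -0.14 (SE 0.54) for kif1a.L.

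The kinesin-3 genes kif13a and kif13b, whose products move endosomal vesicles in mammalian cells, differed from kif1a in their values. kif13a.S (Scaffold35, 2165306 to 2230595, plus strand) had 216, 355 and 415 reads in IN and 62, 112 and 91 in NPC. All IN libraries were above all NPC libraries, with means of 33.4 ± 10.9 CPM in IN and 10.7 ± 3.78 CPM in NPC (SD, n = 3 each). Its log2 fold change of 1.64 had an SE of 1.24 (edgeR unadjusted p = 0.200).

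kif13b.S (5S, 131452029 to 131546549, plus strand) had the lowest p of the motor genes and rested on 1 library. It had 3, 0 and 23 reads in IN and 6, 1355 and 31 reads in NPC. NPC replicate 2 held 95.6% of its reads, and the other 5 libraries of the groups overlapped. Its log2 fold change was -6.01 (SE 1.92, edgeR unadjusted p = 0.00520, adjusted p = 1.00), and -1.34 (unadjusted p = 0.604) without NPC replicate 2. In the table of reads counted over coding sequence, kif13b.S had 0, 0 and 22 reads in IN and 1, 0 and 28 reads in NPC, so none of the 1355 reads of NPC replicate 2 was counted over its coding sequence. Its L copy, kif13b.L, had 71, 190 and 499 reads in IN and 115, 127 and 260 in NPC.

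The other kinesin-3 genes showed no separation of the groups. kif16b.L, an early endosome motor, was at 32.5, 36.6 and 67.7 CPM in IN and at 13.7, 61.4 and 37.2 CPM in NPC. kif1c.S was at 17.0, 19.6 and 9.99 CPM in IN and at 17.1, 18.5 and 6.70 CPM in NPC. The groups overlapped for both, with log2 fold changes of 0.29 (SE 0.95) for kif16b.L and 0.14 (SE 1.41) for kif1c.S.

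**Figure D2:**
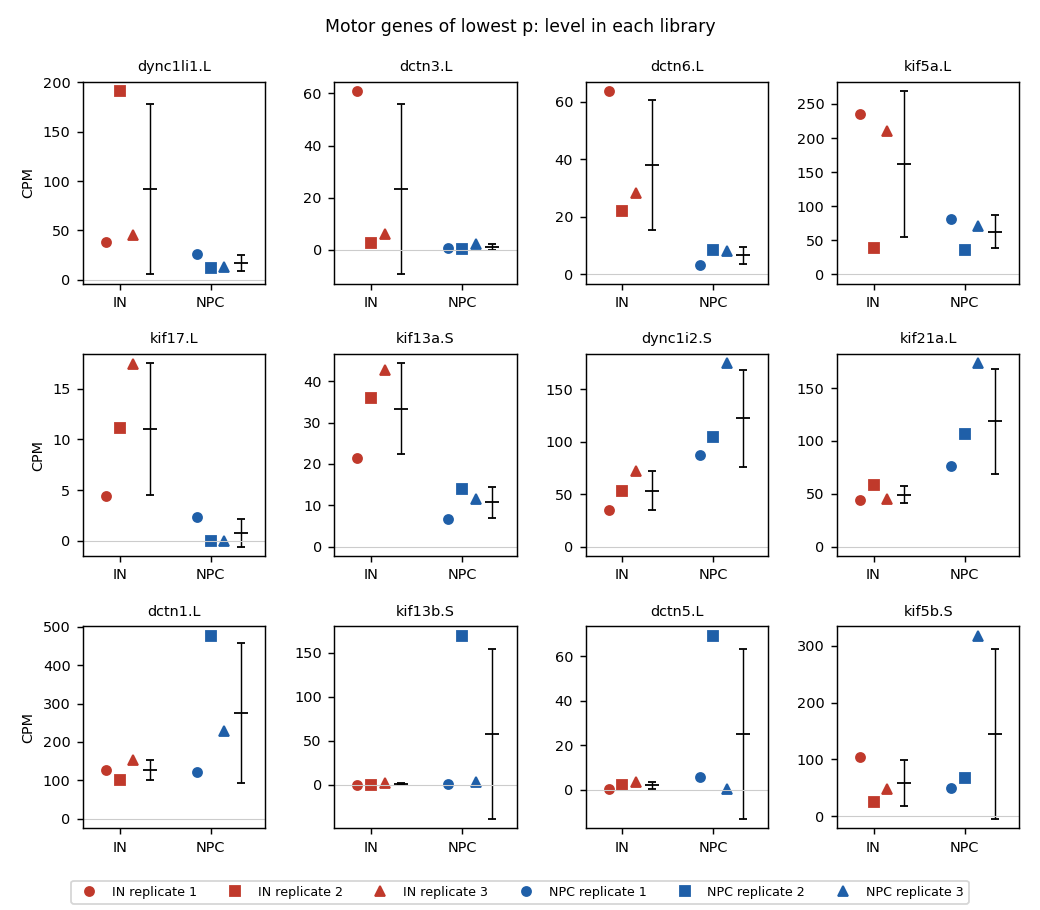
Level in CPM in each library of 12 motor genes, those of lowest edgeR p in each direction. The separation shown is partly set by that choice. IN is in red on the left and NPC in blue on the right of each panel. Marker shapes give the replicate number, and black bars give the mean and SD of 3 libraries. All IN libraries lie above all NPC libraries for dync1li1.L, dctn3.L, dctn6.L, kif17.L and kif13a.S, and below them for dync1i2.S and kif21a.L. In kif13b.S, dctn5.L and kif5b.S, 1 NPC library lies far above the rest. Single IN libraries also stand out: IN replicate 1 held 85.1% of the dctn3.L reads and IN replicate 2 held 59.6% of the dync1li1.L reads.

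The spindle kinesins, which act in dividing cells, were scarce and uneven between libraries of the same group. Their 9 genes summed to 67.6, 157 and 296 CPM in IN and to 20.8, 188 and 156 CPM in NPC. Replicate 1 was the lowest library of each group. Of the 9 genes 7 were tested, with log2 fold changes above 0 for 4 and below 0 for 3, and none had an unadjusted p under 0.05.

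kif22, a chromokinesin that moves chromosome arms, is 1 example of this spread. kif22.S (Scaffold29, 1933213 to 1944078, plus strand) had 0, 377 and 723 reads in IN and 3, 772 and 166 in NPC. kif22.L (Scaffold22, 1107632 to 1118785, plus strand) had 14, 56 and 459 reads in IN and 41, 152 and 4 in NPC. Low and high libraries occurred in both groups, and the log2 fold changes were -0.06 (SE 1.51) and 1.19 (SE 1.71). Over coding sequence kif22.S had 0, 322 and 540 reads in IN and 1, 88 and 34 in NPC, a log2 fold change of 2.49 that also missed the threshold. kif20b.S, which acts in cytokinesis, was the most abundant of the class by reads, with 574, 440 and 1178 in IN and 44, 471 and 512 in NPC. Its groups overlapped, with a log2 fold change of 0.80 (SE 0.93).

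At the other end were genes with few reads or with reads in few libraries. kif18b.S had 0, 5 and 70 reads in IN and none in NPC, where 3 reads over the group would correspond to 0.118 CPM. kif9.S, a kinesin of motile cilia in mammals, had no reads in IN, where 3 reads over the group would correspond to 0.101 CPM, and had 112, 0 and 2 reads in NPC. kifc3.S, a minus-end kinesin, had no reads in IN and 3, 5 and 5 in NPC, and kifc3.L had 14 reads in NPC replicate 3 and none elsewhere. These genes, with kif19.L and kifc1.L, had too few libraries with enough reads to pass the filter and were not tested. Without molecular identifiers 1 molecule can give several reads, and these limits cover counting error only.

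Among the other kinesins, kif21b.L (2L, 68257959 to 68361928, minus strand), a regulator of microtubule growth in neurons, had the most reads. It was at 509, 320 and 497 CPM in IN and at 325, 331 and 677 CPM in NPC. The groups overlapped, with a log2 fold change of -0.01 (SE 0.49). An opposite-strand gene, cpne9.L, overlaps it over 192 bases and had 3713 reads, and since the sources do not say whether counting used strand, the reads of that stretch cannot be told apart.

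Its relative kif21a.L (3L, 66258683 to 66335620, minus strand) was at 44.4, 58.5 and 44.9 CPM in IN and at 76.2, 107 and 173 CPM in NPC. All IN libraries were below all NPC libraries, with means of 49.3 ± 8.01 CPM in IN and 119 ± 49.7 CPM in NPC (SD, n = 3 each). Its log2 fold change was -1.27 (SE 0.70, edgeR unadjusted p = 0.0866, adjusted p = 1.00) and stayed between -1.52 and -0.89 when each library was left out in turn. kif26a.S was also lower in every IN library, by a narrow margin, at 39.2, 35.1 and 42.8 CPM in IN and 44.6, 45.1 and 49.0 CPM in NPC.

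kif26a, which in mice lacks motor activity and takes part in cell signalling, has a close relative in kif26b. kif26b.S (5S, 42892584 to 43095002, minus strand) was at 1330, 500 and 643 reads in IN and at 840, 72 and 261 reads in NPC. The groups overlapped, and the log2 fold change was 0.92 (SE 0.88). kif26b.L (5L, 51983601 to 52059318, minus strand) had 185, 137 and 189 reads in IN and 192, 439 and 26 in NPC, on an annotated mRNA of only 516 bases.

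kif2a depolymerises microtubule ends and, in mice, limits the growth of axon branches. kif2a.S was at 62.6, 47.4 and 276 CPM in IN and at 95.9, 102 and 88.9 CPM in NPC. IN replicate 3 was its highest library and IN replicate 2 its lowest, and the log2 fold change was 0.43 (SE 0.70). kif7.L, a regulator of Hedgehog signalling in the primary cilium, had 61, 4 and 629 reads in IN and 433, 339 and 280 in NPC. In these mRNA counts the NPC libraries were alike, whereas the IN libraries spanned both ends of the range. Its coding reads were 12, 3 and 602 in IN and 361, 69 and 280 in NPC, so the NPC libraries were not alike there.

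Dynein-1 is the cytoplasmic dynein of cargo transport, built on the heavy chain dync1h1. dync1h1.L (8L, 73802230 to 73888907, plus strand) was the motor gene with the most reads, at 8711, 8728 and 12091 in IN and 8082, 4563 and 9607 in NPC. The groups overlapped, with the lowest library in NPC and the highest in IN. Means were 997 ± 215 CPM in IN and 881 ± 323 CPM in NPC (SD, n = 3 each), a log2 fold change of 0.18 (SE 0.44, 95% interval -0.73 to 1.09), and -0.05 without NPC replicate 2. This interval was the narrowest of the 64 tested motor genes. The S copy, dync1h1.S (8S, 11667644 to 11747031, minus strand), was at 88.3, 70.8 and 164 CPM in IN and at 105, 123 and 109 CPM in NPC, a log2 fold change of -0.06 (SE 0.63).

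The light intermediate chains link dynein to its cargo adaptors. dync1li1.L (6L, 48241812 to 48260358, minus strand) had 393, 1883 and 439 reads in IN and 245, 96 and 103 in NPC. All IN libraries were above all NPC libraries, with IN replicate 2 far above the others. Means were 91.7 ± 86.1 CPM in IN and 17.0 ± 7.77 CPM in NPC (SD, n = 3 each). The log2 fold change was 2.43 (SE 0.93, 95% interval 0.49 to 4.37, edgeR unadjusted p = 0.0166, adjusted p = 1.00), and 1.31 (unadjusted p = 0.340) without IN replicate 2.

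The S copy of the same chain did not share this pattern. dync1li1.S was at 53.9, 121 and 91.5 CPM in IN and at 30.4, 116 and 123 CPM in NPC, a log2 fold change of -0.02 (SE 0.72). Added together, the dync1li1 copies were at 92.7, 312 and 137 CPM in IN and 56.3, 128 and 136 CPM in NPC. The summed groups overlapped, with a log2 fold change of 0.77 (SE 0.61). The dync1li2 copies, dync1li2.L and dync1li2.S, had log2 fold changes of 0.26 (SE 0.81) and -0.10 (SE 0.83).

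The intermediate chain dync1i2 binds dynactin. dync1i2.S (9_10S, 59849066 to 59893157, plus strand) was at 35.2, 53.1 and 72.4 CPM in IN and at 87.7, 105 and 175 CPM in NPC. All IN libraries were below all NPC libraries, and the log2 fold change was -1.20 (SE 0.70, edgeR unadjusted p = 0.102, adjusted p = 1.00). dync1i2.L was at 28.1, 89.8 and 150 CPM in IN and at 73.8, 182 and 58.6 CPM in NPC, with overlapping groups and a log2 fold change of -0.23 (SE 0.74).

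Dynein-2 returns cargo from the tips of cilia. Its heavy chain dync2h1.L was at 21.4, 16.9 and 23.3 CPM in IN and at 30.3, 27.0 and 69.7 CPM in NPC. Every IN library was below every NPC library, with a log2 fold change of -1.04 (SE 1.04). Its light intermediate chain dync2li1.S (5S, 20554711 to 20584308, plus strand) had 1, 46 and 231 reads in IN and 22, 2 and 142 in NPC. In that gene the spread within each group was far larger than the difference between the groups. The 11 markers of multiciliated ependyma, of which 5 had reads in all 6 libraries and each had reads in at least 1, summed to 401, 274 and 123 CPM in IN and to 288, 416 and 328 CPM in NPC. A large part of each sum was 1 gene, dnah5.L, at 303, 148 and 79.2 CPM in IN and 149, 128 and 225 CPM in NPC. What part these markers had in the values of the ciliary motors was not tested.

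The dynein light chains are small proteins that join the dynein tail and are shared with other complexes. Per length, 3 of the 8 genes (dynlrb1.S, dynll1.L and dynll1.S) were the most abundant motor genes. dynlrb1.S (9_10S, 29729913 to 29734137, minus strand) was at 64.1, 37.9 and 32.2 CPM in IN and at 25.9, 114 and 23.8 CPM in NPC, a log2 fold change of -0.29 (SE 0.90). dynlrb1.L had 1, 120 and 39 reads in IN and 41, 141 and 0 in NPC, and the groups of both copies overlapped. dynll1.L was at 113, 145 and 184 CPM in IN and at 200, 159 and 106 CPM in NPC, a log2 fold change of -0.08 (SE 0.57). dynll1.S was at 31.6, 129 and 71.7 CPM in IN and at 59.6, 101 and 13.3 CPM in NPC. None of the 8 light chain genes had groups without overlap or an unadjusted p under 0.05.

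Dynactin joins dynein to cargo and keeps it on the microtubule, and dctn1 is its largest subunit. dctn1.L (1L, 7082020 to 7126159, plus strand) was at 126, 101 and 154 CPM in IN and at 122, 476 and 229 CPM in NPC. NPC replicate 2 was far above the rest, and NPC replicate 1 lay among the IN libraries. Its log2 fold change was -1.12 (SE 0.58, edgeR unadjusted p = 0.0701, adjusted p = 1.00), and -0.46 without NPC replicate 2. Over coding sequence it was -1.77 (edgeR unadjusted p = 0.0214), which did not pass the adjusted threshold. Its coding reads were 504, 306 and 569 in IN and 371, 2363 and 1450 in NPC, again highest in NPC replicate 2. dctn1.S (1S, 3043859 to 3080264, minus strand) was at 117, 166 and 103 CPM in IN and at 170, 116 and 117 CPM in NPC, a log2 fold change of -0.06 (SE 0.59).

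Added together, the dctn1 copies were at 243, 268 and 257 CPM in IN and 292, 592 and 346 CPM in NPC. The summed groups did not overlap and the IN libraries were alike, but the log2 fold change of -0.66 had an SE of 0.46 (edgeR unadjusted p = 0.160).

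dctn6.L and dctn5 belong to the pointed-end complex of dynactin, which caps its actin-related filament and binds cargo. dctn6.L (1L, 77650674 to 77672968, plus strand) was at 63.7, 22.1 and 28.1 CPM in IN and at 3.28, 8.50 and 7.97 CPM in NPC. All IN libraries were above all NPC libraries, and the log2 fold change was 2.53 (SE 1.29, edgeR unadjusted p = 0.0639, adjusted p = 1.00). It stayed between 1.93 and 2.80 when each library was left out in turn. Over coding sequence it was 2.79 (edgeR unadjusted p = 0.120), and the groups overlapped there. dctn5.L (9_10L, 105279591 to 105291138, plus strand) had 2, 22 and 33 reads in IN and 54, 554 and 4 in NPC. NPC replicate 2 held 82.8% of its reads, and the log2 fold change was -3.69 (SE 1.88), or -0.67 without that library. dctn5.S (9_10S, 93776019 to 93786858, plus strand), the more abundant copy, was at 59.0, 82.8 and 25.6 CPM in IN and at 58.3, 30.2 and 74.9 CPM in NPC, a log2 fold change of 0.03 (SE 0.84).

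dctn3.L (1L, 219095176 to 219105503, plus strand) encodes the small shoulder subunit. It had 617, 25 and 59 reads in IN and 4, 3 and 17 in NPC. Every IN library was above every NPC library, but IN replicate 1 alone held 85.1% of the reads. Its log2 fold change was 4.54 (95% interval 0.55 to 8.53, edgeR unadjusted p = 0.0276, adjusted p = 1.00), and 2.12 (unadjusted p = 0.403) without IN replicate 1. dctn3.S had 25, 259 and 272 reads in IN and 72, 153 and 160 in NPC, so the library with the most dctn3.L reads had the fewest dctn3.S reads.

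More generally, 10 of the 64 tested motor genes, or 15.6%, had more than 50% of their reads in 1 library, against 25.2% of all tested genes. That library was an IN library for 4 of them and an NPC library for 6. Besides those above, dynll2.S had 79.3% of its reads in NPC replicate 2, kif18a.L 77.9% in NPC replicate 3, kif27.L 69.0% in NPC replicate 3 and dynlt3.L 58.6% in NPC replicate 1. The median biological coefficient of variation of the fit was 82.7% over the motor genes, against 110% over all genes.

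Levels per length, compared between genes in RPKM, spanned more than 3 orders of magnitude. The highest single genes were dynlrb1.S at 139, dynll1.L at 127, dynll1.S at 118 and dctn5.S at 111 RPKM (mean of 6 libraries). These encode small proteins on transcripts annotated as short. The annotation gives 12 motor genes no untranslated region, among them dynlrb1.S, dctn5.S and kif1a.S, whose levels per length may therefore be too high. By coding reads per coding length, a scale added after seeing the data, dynll1.L came first at 690, against 252 for dynlrb1.S. Among the large motor chains, dync1h1.L at 62.7, kif5a.S at 58.9, kif1a.S at 55.7 and kif5c.L at 46.0 RPKM led. This order also depended on the part of the transcript counted. Per coding length, kif5a.S was at 117, kif5c.S at 115, dync1h1.L at 109, kif21b.L at 94.8, kif1a.S at 88.8 and kif5c.L at 71.6. At the low end were kif19.L at 0.0956, kifc3.S at 0.0756 and kifc3.L at 0.0736 RPKM.

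By role, the summed level was highest for the dynein light chains, at 444 ± 84.8 RPKM in IN and 490 ± 315 RPKM in NPC. Dynactin came next, at 266 ± 50.2 in IN and 312 ± 71.2 in NPC. Kinesin-1, at 218 ± 48.0 in IN and 237 ± 87.3 in NPC, and dynein-1, at 215 ± 49.9 in IN and 208 ± 42.7 in NPC, did not differ from each other beyond their spread. Kinesin-3 summed to 104 ± 30.7 RPKM in IN and 126 ± 32.0 in NPC. Kinesin-2 was at 36.8 ± 10.4 in IN and 48.0 ± 2.49 in NPC, in the range of the spindle kinesins at 36.5 ± 28.7 in IN and 26.6 ± 21.5 in NPC. Dynein-2 was lowest, at 7.36 ± 6.66 in IN and 8.64 ± 7.83 in NPC (SD, n = 3 each). Each sum covers only the genes that the rule took in, so it is not the level of a whole class. There were 16 other kinesin, 11 dynactin, 9 spindle kinesin, 8 dynein light chain and 8 dynein-1 genes. Kinesin-3 had 7 genes, kinesin-1 had 6, kinesin-2 had 3 and dynein-2 had 2. Genes such as kif1b-like, kif3b-like and kif11 are not in the sums. In each role class other than kinesin-2 the means of IN and NPC lay closer together than the larger of their SDs.

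**Figure D3:**
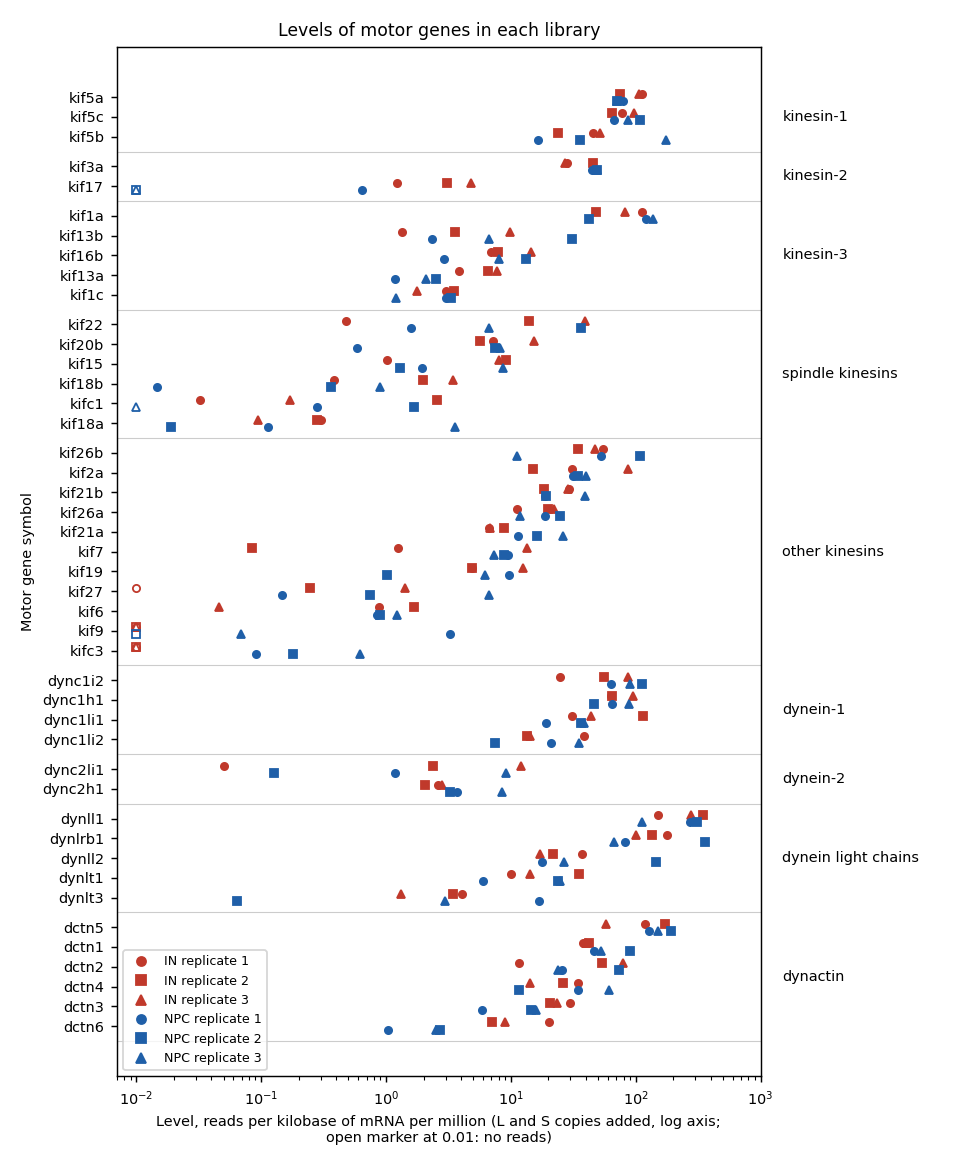
Level of each motor gene symbol in each library, in RPKM on a log axis with L and S copies added, IN in red above NPC in blue and marker shapes for the replicate number. The light chains dynll1 and dynlrb1, with dctn5, kif5a, kif5c, kif1a and dync1h1 sit at the high end, and kifc3 and kif9 at the low end, where open markers stand for libraries without reads.

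The L and S copies of a motor did not share a direction as a rule, and neither did those of genes at large. Of 26 pairs, 23 had both copies tested, and in 10 of these, or 43.5%, the log2 fold changes had the same sign, against 51.0% of 5839 pairs over all genes. The L copy held more than 50% of the pair's reads, averaged over libraries, in 10 of the 23 pairs, or 43.5%, against 58.0% over all genes. The share of the L copy ranged over 42.6 percentage points between libraries at the median pair, against 59.5 points over all genes.

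In 6 of the 23 pairs the same copy held more than 50% of the mRNA reads in every library. The share over all pairs was not counted, so 6 of 23 cannot be called many or few. For dync1h1 it was the L copy, with 82.3% to 92.6% of the reads, and for dynll1 it was the L copy, with 52.8% to 88.9%. For kif5a, kif5c, kif2a and dynlrb1 it was the S copy. These shares are of mRNA reads without correction for length. Per length, kif5c.L was above kif5c.S in 5 of the 6 libraries, and dynll1.L was above dynll1.S in 4. In coding reads the L copy held more than 50% in 1 library for kif5c, in 1 for kif2a and in 5 for dynll1. Of these 6 pairs, only dync1h1, kif5a and dynlrb1 kept the same copy ahead in every library on both of these scales. Outside the 6, the L copy of dctn4 was also ahead in all 6 libraries on both, but held over 50% of the mRNA reads in only 3. The L share of kif5a was 49.3%, 12.02% and 46.5% in IN and 23.9%, 11.6% and 23.3% in NPC. That of kif5c was narrower, at 39.3%, 31.1% and 32.4% in IN and 40.6%, 36.0% and 23.5% in NPC. In contrast, the L share of dctn3 was 96.1%, 8.80% and 17.8% in IN and 5.26%, 1.92% and 9.60% in NPC. Reads that match both copies may have been dropped or split, since the sources do not describe their counting, and each single copy's value carries that uncertainty.

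**Figure D4:**
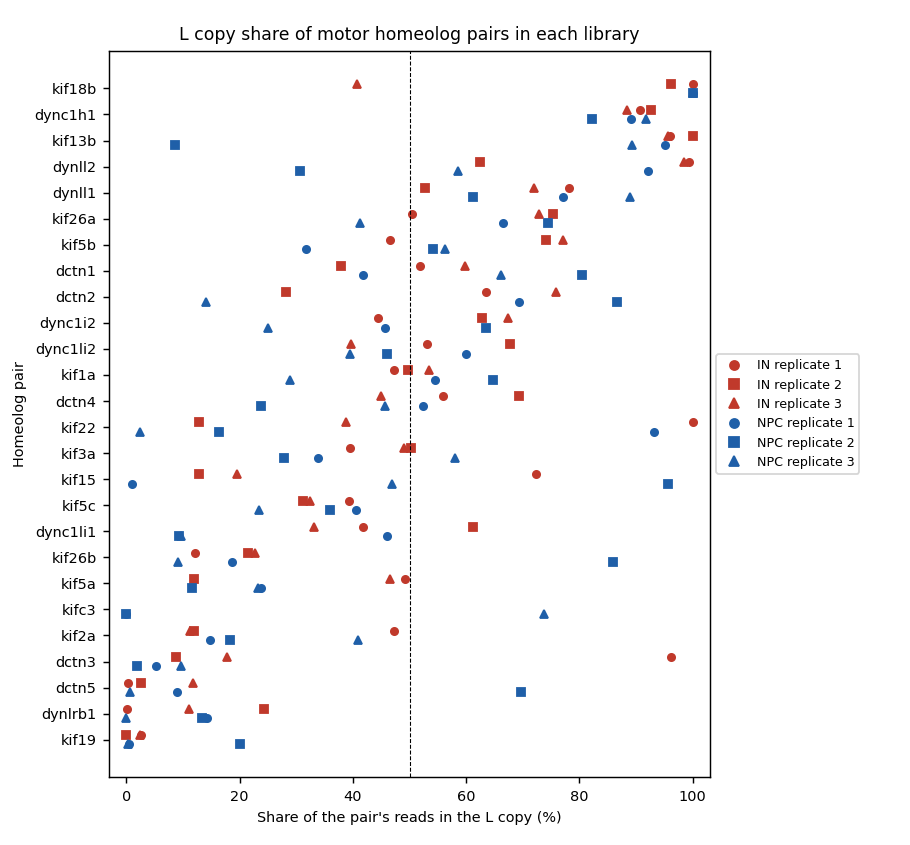
Share of each homeolog pair's reads that the L copy held in each library, in percent, IN in red above NPC in blue, with pairs ordered by their mean and the dashed line at 50%. dync1h1 keeps to the L side in all 6 libraries and dynlrb1 to the S side, whereas dctn3 and kif15 reach from near 0% to near 100%.

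With L and S copies summed, 41 motor symbols could be tested. The groups did not overlap for 8 of them, or 19.5%, against 8.68% of all summed genes. In 4 (dctn3, dctn6, kif13a and kif17) all IN libraries were above all NPC libraries, and in 4 (dctn1, kif3a, kif21a and dync2h1) all were below. Of these, dctn6, kif13a, kif17, kif21a and dync2h1 have only 1 copy in the list. They repeat single genes already described as without overlap, and only dctn3, dctn1 and kif3a are sums of copies. None had an unadjusted edgeR p under 0.05, against a background of 3.5%, and none passed the adjusted threshold. The lowest unadjusted p was 0.0594, for dctn6, and the log2 fold change was above 0 for 22 symbols and below 0 for 19.

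The tables differed in how much of each transcript they counted. Reads over coding sequence made 60.2%, 67.1% and 78.8% of the motor genes' mRNA reads in IN and 59.6%, 64.6% and 74.7% in NPC. The share followed the replicate number more than the group, and it did so over all genes too, at 45.9%, 54.0% and 60.9% in IN and 45.1%, 55.1% and 61.0% in NPC. It was higher for the motor genes than over all genes in each of the 6 libraries.

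**Figure D5:**
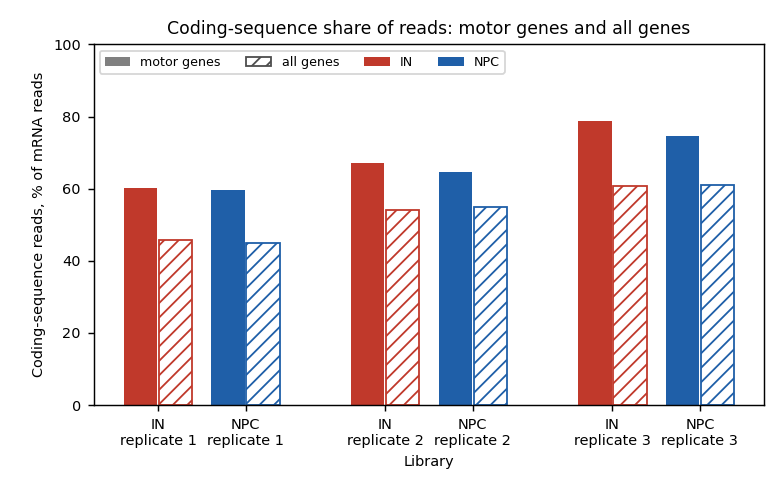
Reads counted over coding sequence as a percentage of reads counted over mRNA, for the motor genes (filled bars) and all genes (hatched bars) in each library, IN in red left of NPC in blue for each replicate number. Libraries of the same number are alike in both groups, and the motor genes are above all genes throughout.

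Single motor genes ranged widely in this share, from 3.597% for kif13b.S to 107% for dctn3.L, with a median of 63.8% over the tested genes. Shares over 100%, seen for dctn3.L and dctn5.S, show that the tables do not count the same reads of a gene in every case. The sign of the log2 fold change differed between mRNA and coding counts for 9 of 60 genes tested in both. Between the STAR and TopHat2 coding counts it differed for none of 59 genes. TopHat2 counted 85.3% to 86.9% of the STAR coding reads of the motor genes in each library.

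Kinesin and dynein work with adaptors, regulators and further dynactin subunits, and 86 genes of 47 such symbols were examined as neighbours in the pathway. Of these 80 were tested, and none passed the adjusted threshold with edgeR or with DESeq2. None had an unadjusted edgeR p under 0.05, against 3.43% of all genes. The log2 fold change was above 0 for 38 and below 0 for 42, with a median of -0.14. The groups did not overlap for 6 of the 80, or 7.5%, against 8.76% of all genes. The lowest p belonged to clstn3.S, a calsyntenin, the family that links vesicles to kinesin-1, with 2295, 3139 and 1887 reads in IN and 1401, 1007 and 612 in NPC. All its IN libraries were above all NPC libraries, with a log2 fold change of 1.07 (SE 0.55, edgeR unadjusted p = 0.0671). For kifap3.L, which binds the kif3 motor pair, there were 335, 348 and 250 reads in IN and 695, 779 and 298 in NPC. Scaled to library size these were 33.1, 35.3 and 25.7 CPM in IN and 73.6, 97.4 and 37.7 CPM in NPC, so every IN library was below every NPC library. The log2 fold change was -1.15 (SE 0.85, edgeR unadjusted p = 0.193). hook2.L, a dynein adaptor, had 218, 1037 and 279 reads in IN and 137, 69 and 121 in NPC. IN replicate 2 was its highest library, as it was for dync1li1.L, but whether these genes vary together was not tested.

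kif5a and dctn2 lie side by side and point away from each other in both subgenomes, with no annotated gene between them. On 2L the gap between dctn2.L (142220661 to 142256863, minus strand) and kif5a.L is 9943 bases, and on 2S the gap between dctn2.S (123414043 to 123438964, minus strand) and kif5a.S is 12959 bases. dctn2.L, the subunit that joins the arm of dynactin to its filament, was at 16.3, 35.9 and 129 CPM in IN and at 39.4, 134 and 8.22 CPM in NPC. dctn2.S had 95, 899 and 399 reads in IN and 164, 165 and 395 reads in NPC. The groups overlapped for each. dctn2.L was highest in NPC replicate 2 and kif5a.L in IN replicate 1, whereas dctn2.S and kif5a.S both had their highest level in IN replicate 2.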

How the data were processed

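Raw read counts per gene were deposited by the authors in 3 tables: STAR reads over mRNA, STAR reads over coding sequence and TopHat2 reads over coding sequence, as the sheet names say. Per the submitters' processing notes, FastQC, Trimmomatic, HTSeq and DESeq2 were used as well, without versions. Per the labels' protocols, reads were single-end, 100 bases long. Columns lettered D were read as dark (NPC) and L as light (IN). Symbols and positions came from the deposited annotation (build 9.1, version 1.8.3.1 per its header).

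The mRNA counts were filtered (filterByExpr), scaled (TMM), then tested by the robust 2-sided quasi-likelihood test of edgeR 4.0.16 (R 4.3.3) over all 19158 genes passing the filter, with Benjamini-Hochberg adjustment and a threshold of 0.05. CPM and RPKM use the TMM library sizes, and RPKM the longest annotated mRNA. Code was tested on simulated counts. The labels do not state separate animals, so the spread behind each p-value may be technical.

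Named genes were the most abundant per length in each role class with its homeolog, the 6 of lowest p in each direction, and all copies of kif1a, kif5a, kif5c, kif3c, dync1h1, dync1i1 and dctn1; other members were chosen after their values were seen. Members, role classes and lists were chosen with earlier results of these data known. Alternatives were DESeq2 1.42.0, limma-voom (limma 3.58.1), scaling by median of ratios or upper quartile, leaving out the filter, requiring 1 CPM in 3 libraries, each coding table, the replicate number as a block, copies summed and each library left out; levels per coding length and the coding share from TopHat2 were added after seeing the data.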

Additional observations from a re-analysis of the deposited data

How the results depend on the processing

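Across all genes, 16 passed the threshold without a filter on low counts and 88 with DESeq2, against 0 in the main edgeR analysis, and leaving out each library in turn gave 0 to 2. Motor genes and pathway partners past the threshold numbered 0 under every alternative run. The median log2 fold change of the motor genes stayed between -0.21 and 0.08. At an unadjusted p under 0.05 there were 4 motor genes with DESeq2, 1 with limma-voom and 6 of 70 without a filter. The shares of all genes in these same fits are not given here, so the counts cannot be called many or few. The groups share replicate numbers, but their numbers were not treated as pairing the samples: deviations of same-numbered libraries correlated at 0.115, 0.0467 and 0.0813, although every library correlated best with its own number. With the replicate number as a block, 0 genes passed the threshold, 645 of all genes had an unadjusted p under 0.05, and 1 motor gene had an unadjusted p under 0.05. The coding-sequence share of the motor genes' reads was 67.5% with STAR and 58.3% with TopHat2, an alternative chosen after seeing the data.

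Of 475 alternative values of the 30 named genes, 421 kept the sign of the log2 fold change and 54, in 15 genes, had the opposite sign; the cause was not tested. None passed the threshold, the lowest adjusted p being 0.0689, and kif5b.S at -1.31 had the largest value that reversed. Upper-quartile scaling gave 0.0045 for dctn1.S, 0.023 for dync1h1.S, 0.10 for kif22.S and 0.0035 for kif5c.L. For kif5a.S, median-of-ratios scaling and DESeq2 each gave -0.0031. STAR coding counts gave 0.16 for dctn1.S, 2.49 for kif22.S, -0.011 for kif5a.S and 0.20 for kif5c.L, and TopHat2 gave 0.30, 2.36, -0.027 and 0.23 for the same 4 genes. limma-voom gave -0.027 for dctn5.S, 0.16 for dynlrb1.L, 0.079 for dynlrb1.S and 0.11 for kif26b.L. The replicate block gave -0.021 for dctn5.S, 0.081 for dynlrb1.S, -0.12 for kif22.L and 0.075 for kif26b.L. Summed copies give the value of the L and S pair and not of the named copy. They gave -0.45 for dctn5, 0.16 for dync1h1, 0.26 for kif22 and 0.53 for kif26b. The signs of these pairs were opposite to those of dctn5.S, dync1h1.S, kif22.S and kif26b.L. Pair values are counted among the 475, and these among the 54.

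Leaving out each library in turn gave values on both sides of 0 for 15 named genes. They ran from -0.28 to 0.13 for dctn1.S, -0.36 to 0.39 for dctn5.S, -0.049 to 0.49 for dync1h1.L, -0.49 to 0.17 for dync1h1.S and -1.51 to 2.87 for dync2li1.S. They ran from -1.83 to 1.32 for dynlrb1.L, -0.65 to 0.85 for dynlrb1.S, -0.38 to 0.27 for kif1a.L, -0.86 to 0.18 for kif1a.S and -1.16 to 2.90 for kif22.L. For kif22.S they ran from -1.04 to 1.82, for kif26b.L from -1.13 to 0.55, for kif5a.S from -0.067 to 0.060, for kif5b.S from -2.02 to 0.00068 and for kif5c.L from -0.23 to 0.17. Where a library is left out, its group keeps 2 libraries.

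By levels per coding length, chosen after seeing the data, the most abundant gene was the same in 6 of 9 role classes, and changed to dynll1.L among the dynein light chains, kif3a.S in kinesin-2 and kif21b.L among the other kinesins. The spread between libraries limits these calls: half-widths of the 95% interval had a median of 2.01 (log2) over the tested motor genes, whose median SE was 0.96, against 1.41 over all genes.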
